A study of Mus musculus with 9 samples.

Results

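A total of 59 protein-coding genes off the X and Y chromosomes were higher in *Med23*-deficient stage 2 invariant natural killer T (iNKT) cells than in both wild-type (WT) stages of the same lineage. The genes were chosen by these same measured values: a gene was taken when its mean log2(FPKM + 1) in the *Med23*-deficient libraries was at least 0.8 above the mean of WT stage 2 and at least 0.8 above that of WT stage 3, and when its lowest *Med23*-deficient value exceeded the highest of the 6 WT values. FPKM is the number of fragments per kilobase of transcript scaled to a fixed number of mapped fragments, so levels can be compared between genes. The 59 genes were 0.465% of the 12689 protein-coding genes to which this rule could be applied, in a table of 21883 genes. Since the comparisons of *Med23*-deficient cells with both WT stages chose these genes, their values in those comparisons are given below as a description, with no test. The same rule turned around, for genes lower in *Med23*-deficient cells than in both WT stages, gave 66 genes. Applied to the other groups, it gave 166 genes highest in WT stage 2 and 173 highest in WT stage 3.

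iNKT cells are T cells with an invariant T cell receptor that recognizes glycolipids presented by CD1d. In the thymus they pass through successive stages that are told apart by CD24, CD44 and NK1.1, and the last step, from stage 2 to stage 3, brings receptors shared with NK cells. Med23 is a subunit of Mediator, the complex that carries signals from transcription factors bound to DNA to RNA polymerase II.

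Sorted thymic iNKT cells of C57BL/6 mice gave 9 RNA libraries, with 3 from WT cells at stage 2, 3 from WT cells at stage 3 and 3 from stage 2 cells lacking Med23. The WT mice were 6 weeks old, and the labels give no age for the *Med23*-deficient mice. According to the study's methods, the deficient mice carried floxed *Med23* alleles and a *Cd4*-Cre transgene. This transgene acts in all T cells from the double-positive thymocyte onwards. The study names WT littermates as controls for its counts of iNKT cells. It does not say whether the WT mice of these libraries were littermates, or whether libraries of both genotypes were prepared together. If they were prepared apart, genotype and preparation cannot be told apart. Stages were sorted as CD24-low CD44-high cells with low (stage 2) or high (stage 3) NK1.1. No *Med23*-deficient stage 3 sample was analysed here, so stage and genotype can be compared only through stage 2. Nothing in the labels says that replicates came from separate mice, and p-values below then measure only the spread between these libraries.

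*Med23* itself was at 5.51, 5.15 and 6.74 FPKM in WT stage 2, at 7.14, 4.44 and 6.12 in WT stage 3, and at 4.80, 3.60 and 3.92 in the *Med23*-deficient libraries. The difference between the stage 2 groups was -0.41 on the log2(FPKM + 1) scale (limma adjusted p = 0.552), and a value summed over all exons does not show whether the deleted part was transcribed. Each library held between 15584 and 17333 genes above 0. The summed level of 13 iNKT and T cell markers was similar in all groups, from 1510 to 1790 FPKM, though single markers differed. *Zbtb16* was at 87.96 to 112.43 FPKM in WT stage 2, 22.72 to 33.37 in WT stage 3 and 68.08 to 90.85 in *Med23*-deficient cells. In the same order, *Thy1* was at 100.82 to 117.32, 53.54 to 92.61 and 46.82 to 53.79. *Il2rb* was higher in WT stage 3, at 103.45 to 133.84, 283.3 to 348.39 and 95.65 to 153.61. Markers of gamma-delta T cells stood at 375 to 431 FPKM in WT stage 2, 357 to 425 in WT stage 3 and 6.00 to 10.1 in *Med23*-deficient cells, mostly from 4 gene segments of the gamma chain. In the same list, *Trdc*, the constant gene of the delta chain, was at 0 to 0.38 FPKM over all 9 libraries. *Sox13* was at 1.95 to 5.07 in WT stage 2, 0 to 1.31 in WT stage 3 and 2.10 to 4.32 in *Med23*-deficient cells. B cell markers summed to 38.0 to 56.3, 47.2 to 55.7 and 85.6 to 104 FPKM, nearly all of it *Ighm*, while *Cd79a* and *Cd79b* were at 0 in the *Med23*-deficient libraries. *Xist*, which is transcribed in female cells, was at 47.45 FPKM in WT stage 3 replicate 2 and at 0.01 or below in the other 8 libraries. In bulk samples, fewer cells of a type and less RNA per cell cannot be told apart, and the part of these differences in the levels below was not tested.

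The 59 genes were mostly of low abundance. Their mean level in *Med23*-deficient cells had a median of 4.48 FPKM and ranged from 0.97 (*Map1b*) to 84.3 (*Nrgn*), with 33 genes under 5 FPKM and 5 at 20 FPKM or more. A mean over the 9 libraries of at least 1 FPKM was reached by 43 of them. All 59 were above 0 in each *Med23*-deficient library, as the rule requires, whereas 43 to 54 were above 0 in a WT stage 2 library and 34 to 41 in a WT stage 3 library. Their summed level was 186 to 254 FPKM in WT stage 2, 107 to 126 in WT stage 3 and 534 to 648 in *Med23*-deficient cells. In 30 genes the mean was under 1 FPKM in both WT stages, and 29 were listed at 0 in at least 1 WT library. *Mapk12*, a p38-type mitogen-activated protein kinase, and *Fndc5*, the precursor of the secreted peptide irisin, were listed at 0 in all 6 WT libraries.

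The smaller of the differences to WT stage 2 and to WT stage 3, on the log2(FPKM + 1) scale, had a median of 1.09 over the 59 genes. It was at least 1 in 37 genes and at least 2 in 7. WT stage 2 was the nearer group in 47 genes and WT stage 3 in 10, and in the 2 genes at 0 in every WT library both were equal. The *Med23*-deficient replicates differed among themselves: the highest was at least 2 times the lowest in 14 genes and under 1.5 times in 27. Replicate 1 held the highest value in 31 genes and replicate 3 the lowest in 28. Just inside the threshold were *Mansc1* (0.82), *Gata3* (0.82), *Map1b* (0.81), *Dip2c* (0.80) and *Rad18* (0.80). Just outside it, with every other condition met, were *Zfp219* (0.795), *Tnfsf14* (0.788), *Cnga1* (0.787), *Gnaq* (0.783), a gene model without a name of its own, and *Phlda1* (0.772). *Tnfsf14*, the cytokine LIGHT, stood at 33.78, 33.46 and 30.13 FPKM in *Med23*-deficient cells against 9.04 to 14.08 in WT stage 2 and 17.39 to 20.12 in WT stage 3.

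**Figure D1:**
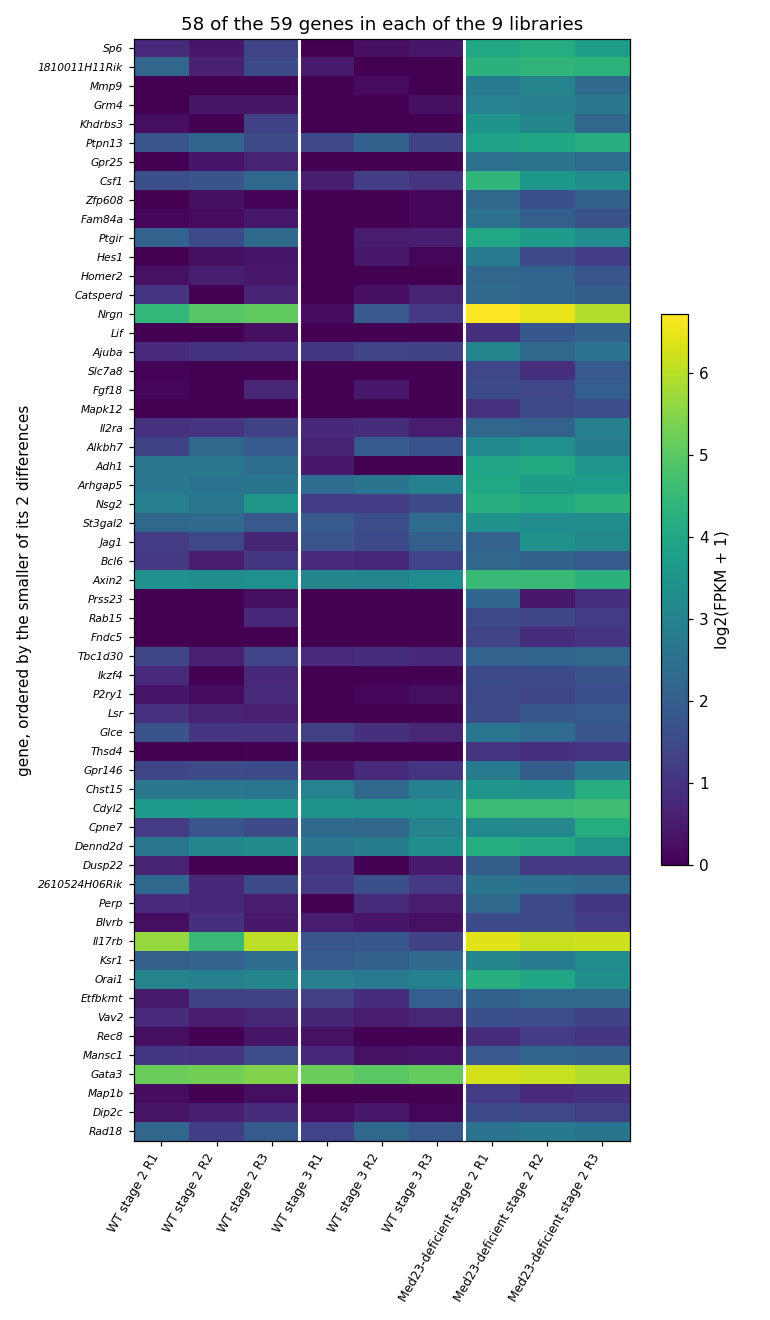
Level of 58 of the 59 genes (rows) in each of the 9 libraries (columns, R1 to R3 for the replicates) as log2(FPKM + 1), with rows ordered by the smaller of the differences to both WT stages. *Sp6* is at the top and *Rad18* at the bottom; most rows are dark in both WT groups, and *Nrgn*, *Il17rb* and *Gata3* are the brightest in *Med23*-deficient cells.

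Among the 7 genes with roles in transcription or chromatin, mean levels in *Med23*-deficient cells ran from 2.0 to 69.2 FPKM. *Sp6*, a zinc-finger factor of the Sp and Klf family best known from teeth and skin (chr11:97013394-97024734, mm10), had the largest difference of all 59 genes. It stood at 15.09, 17.02 and 12.53 FPKM in *Med23*-deficient cells, at 0.78, 0.36 and 1.61 in WT stage 2, and at 0, 0.21 and 0.36 in WT stage 3. Its lowest deficient library was thus well clear of every WT library, and the smaller difference was 3.09 on the log2(FPKM + 1) scale. *Gata3*, the master regulator of type 2 T cells (chr2:9857078-9890034), was abundant in every library: 77.18, 69.69 and 60.69 FPKM in *Med23*-deficient cells, 35.81, 38.10 and 42.47 in WT stage 2, and 35.33, 31.15 and 33.93 in WT stage 3. The smaller difference of *Gata3* was 0.82, close to the threshold, and the gene no longer met the rule when WT stage 2 replicate 1 or *Med23*-deficient replicate 1 was left out.

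*Zfp608*, a zinc-finger gene, was near 0 in WT cells (0 to 0.22 FPKM) and at 3.78, 2.09 and 3.15 in *Med23*-deficient cells. *Hes1*, a repressor that Notch signalling induces, was at 6.00 FPKM in *Med23*-deficient replicate 1 but at 1.94 and 1.32 in the other replicates, against 0 to 0.36 in WT cells. *Bcl6*, the repressor that defines follicular helper T cells, stood at 3.63, 3.21 and 2.82 FPKM, and at 0.42 to 1.57 in the 6 WT libraries. These values are modest, and the deficient replicates of *Bcl6* were closer to each other than those of *Hes1*. *Ikzf4*, the Ikaros-family factor Eos known from regulatory T cells, was at 1.87, 1.85 and 2.29 FPKM, at 0.73, 0 and 0.71 in WT stage 2 and at 0 in all WT stage 3 libraries. *Cdyl2*, a chromodomain protein that reads histone methylation, had the most even values: 22.96, 23.09 and 23.71 FPKM in *Med23*-deficient cells, 11.12 to 11.75 in WT stage 2 and 9.61 to 10.06 in WT stage 3.

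**Figure D2:**
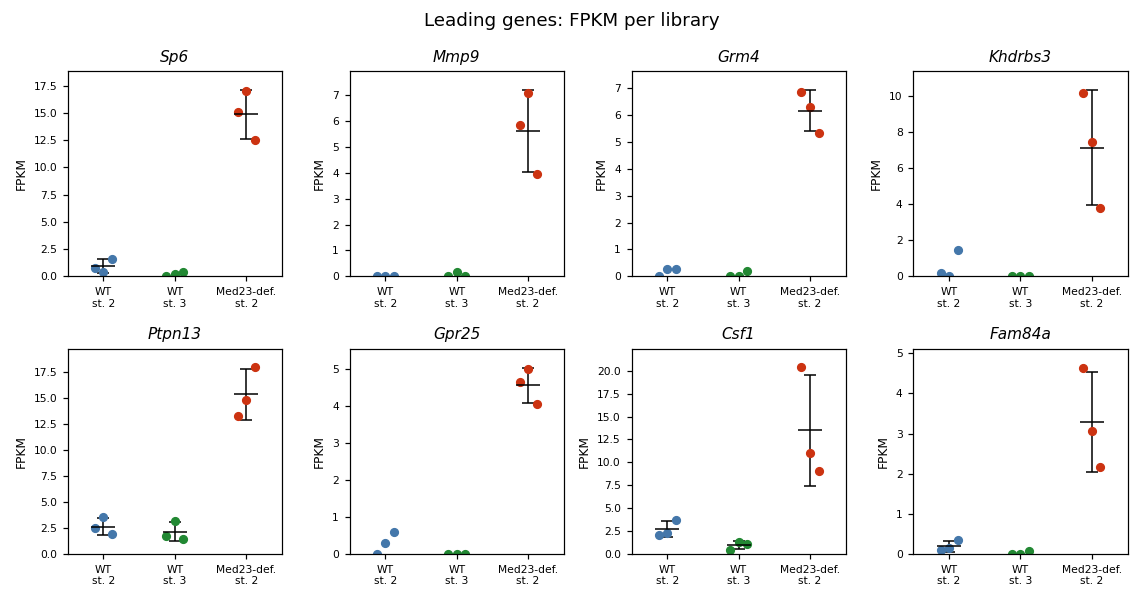
FPKM in each library (points) of 8 leading genes by group, both WT stages first and *Med23*-deficient stage 2 last, with the mean (bar) and SD (whiskers) of 3 libraries where none of them is at 0; each panel has its own axis from 0. In every panel the lowest deficient point is above the highest WT point, as the rule requires, and the deficient replicates spread most in *Khdrbs3*, *Csf1* and *Fam84a*.

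A set of 9 genes encode ligands or other secreted or extracellular proteins, with mean levels of 1.01 to 13.5 FPKM in *Med23*-deficient cells. *Csf1*, the growth factor of macrophages (chr3:107741048-107760469), was the most abundant of them at 20.36, 11.03 and 9.07 FPKM, against 2.12, 2.30 and 3.76 in WT stage 2 and 0.49, 1.31 and 1.07 in WT stage 3. All 3 WT stage 3 values lay below those of WT stage 2. For *Mmp9*, a gelatinase that cleaves extracellular matrix (chr2:164940780-164955850), every WT library was at 0 except WT stage 3 replicate 2, at 0.15 FPKM. In *Med23*-deficient cells it was at 5.84, 7.09 and 3.95 FPKM. Of 12 neutrophil markers, 1 has a row in the table: *Cxcr2*, which was at 0.36 to 1.20 FPKM in WT stage 2 and at 0.44 to 0.69 in *Med23*-deficient cells.

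The cytokine *Lif* was at 0.89, 2.62 and 3.28 FPKM in *Med23*-deficient cells and at 0 in all WT libraries but WT stage 2 replicate 3, where it reached 0.22. *Fgf18*, a fibroblast growth factor, stood at 1.83, 1.71 and 3.03 FPKM against 0 to 0.65 in WT cells. *Jag1*, a membrane-bound ligand of Notch receptors, was at 3.30, 9.68 and 7.99 FPKM, at 1.25, 1.73 and 0.61 in WT stage 2, and at 2.43, 1.85 and 3.10 in WT stage 3. The lowest deficient value of *Jag1* thus passed the highest WT value by only a small margin. Of the rest of the group, *Fndc5*, *Prss23* and *Thsd4* had means of 1.01 to 1.60 FPKM. Among these, *Prss23*, a serine protease, was at 3.53 in replicate 1 but at 0.38 and 0.88 in the others, and it no longer met the rule without replicate 1.

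Receptors, channels and transporters made up 11 genes. *Grm4*, a metabotropic glutamate receptor (chr17:27422387-27513341), was at 6.87, 6.31 and 5.34 FPKM in *Med23*-deficient cells, at 0, 0.27 and 0.28 in WT stage 2 and at 0, 0 and 0.20 in WT stage 3. *Gpr25*, an orphan G protein-coupled receptor, was at 4.64, 4.98 and 4.05 FPKM, at 0, 0.30 and 0.60 in WT stage 2 and at 0 throughout WT stage 3. *Ptgir*, the prostacyclin receptor, was at 15.03, 11.81 and 8.65 FPKM, at 3.32, 1.84 and 4.01 in WT stage 2 and at 0, 0.42 and 0.48 in WT stage 3. In *Grm4*, *Gpr25* and *Ptgir*, no WT stage 3 library exceeded 0.48 FPKM. *P2ry1*, a receptor for ADP, and *Gpr146*, another orphan receptor, had lower means of 1.85 and 4.69 FPKM.

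*Il2ra* and *Il17rb* encode cytokine receptor chains. *Il2ra*, the alpha chain of the interleukin-2 receptor, was at 3.66, 3.40 and 6.57 FPKM in *Med23*-deficient cells, 0.95, 1.02 and 1.5 in WT stage 2 and 0.70, 0.84 and 0.42 in WT stage 3. *Il17rb*, the receptor chain for interleukin-25 (chr14:29996141-30008896), was at 83.59, 72.08 and 73.64 FPKM, at 49.60, 22.65 and 64.74 in WT stage 2 and at 2.40, 2.54 and 1.5 in WT stage 3. The WT stage 2 values of *Il17rb* covered a wide range, and the gene no longer met the rule when replicate 2 of that group, the lowest, or *Med23*-deficient replicate 1 was left out. *Orai1*, the pore of the calcium channel opened by T cell receptor signals, was at 17.15, 14.72 and 9.24 FPKM, with 5.96 to 7.25 in the WT libraries. *Slc7a8*, an amino acid transporter, was at 1.71, 0.86 and 2.64 FPKM and at 0.05 or 0 in WT cells. *Catsperd*, a subunit of the sperm calcium channel, was at 3.90, 3.45 and 2.92 FPKM with 0 to 1.07 in WT cells, and *Lsr*, a lipoprotein receptor of cell junctions, at 1.95, 2.6 and 2.75 FPKM with 0 to 0.94.

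Of 11 genes for intracellular signalling, *Ptpn13* and *Axin2* had the highest levels. *Ptpn13*, a large non-receptor tyrosine phosphatase (chr5:103425192-103598303), was at 13.25, 14.81 and 17.99 FPKM in *Med23*-deficient cells, 2.49, 3.55 and 1.90 in WT stage 2 and 1.74, 3.19 and 1.48 in WT stage 3. *Axin2*, a target and inhibitor of Wnt signalling (chr11:108920349-108950783), was at 21.89, 21.98 and 18.93 FPKM, 9.35, 8.94 and 9.32 in WT stage 2 and 7.25, 7.22 and 8.57 in WT stage 3. Both genes were above 0 in every WT library, and the replicates of *Axin2* lay closer together than those of *Ptpn13*. *Ajuba*, a LIM-domain scaffold protein, was at 7.21, 4.02 and 4.91 FPKM against 0.78 to 1.61 in WT cells. *Arhgap5* was at 14.95, 11.77 and 12.48 FPKM against 4.07 to 6.77, and *Dennd2d*, an activator of Rab GTPases, at 16.74, 15.73 and 10.76 against 5.23 to 9.02. *Mapk12* was at 0.96, 1.87 and 2.02 FPKM. The other genes here, *Ksr1*, *Dusp22*, *Vav2*, *Rab15* and *Tbc1d30*, had means between 1.56 and 7.23 FPKM.

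A further 6 genes are best known from neurons. *Nrgn*, neurogranin, a calmodulin-binding protein (chr9:37544492-37552904), was the most abundant of the 59 at 104.29, 88.41 and 60.17 FPKM in *Med23*-deficient cells, with 20.77, 30.42 and 32.79 in WT stage 2 and 0.17, 2.69 and 1.17 in WT stage 3. *Nsg2*, an endosomal protein, was at 17.71, 15.85 and 19.03 FPKM, 6.63, 5.22 and 10.83 in WT stage 2 and 1.25, 1.23 and 1.92 in WT stage 3. Both genes thus fell into 3 separate levels, with WT stage 2 in the middle. *Khdrbs3*, an RNA-binding splicing regulator, was at 10.16, 7.42 and 3.79 FPKM, at 0.19, 0 and 1.46 in WT stage 2 and at 0 throughout WT stage 3. *Homer2*, a scaffold of glutamate receptor signalling, was at 3.67, 3.47 and 2.43 FPKM, 0.23, 0.48 and 0.35 in WT stage 2 and 0 throughout WT stage 3. *Cpne7*, a calcium-binding copine, was at 7.84, 7.68 and 16.81 FPKM, with WT stage 2 at 1.26, 2.42 and 1.93 and WT stage 3 at 3.94, 3.69 and 7.08. The WT order of *Cpne7* was therefore the opposite of that of *Nrgn*, and *Cpne7* met the rule only with the high replicate 3 included. *Map1b*, a microtubule-associated protein, had the lowest mean of all 59 genes.

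Enzymes of metabolism and of the modification of proteins or glycans made up 7 genes, with means of 1.68 to 13.5 FPKM. *Adh1*, an alcohol dehydrogenase that also oxidizes retinol, was at 14.18, 16.04 and 10.34 FPKM in *Med23*-deficient cells, at 5.28, 5.51 and 4.34 in WT stage 2 and at 0.37, 0 and 0 in WT stage 3. *Alkbh7*, a mitochondrial dioxygenase, was at 7.86, 9.33 and 6.12 FPKM against 0.57 to 3.77 in WT cells. *St3gal2*, a sialyltransferase, *Chst15* and *Glce*, both of glycosaminoglycan synthesis, *Blvrb*, a biliverdin reductase, and *Etfbkmt*, a mitochondrial methyltransferase, had smaller differences of 0.84 to 1.15 on the log2(FPKM + 1) scale. The remaining 8 genes had no shared role. *Fam84a* was at 4.64, 3.07 and 2.17 FPKM against 0 to 0.34 in WT cells. *Rad18*, a ubiquitin ligase of DNA damage tolerance, was at 4.90, 5.52 and 5.10 against 1.36 to 3.77. The gene models *1810011H11Rik* and *2610524H06Rik* stood at 18.80, 20.21 and 19.16 FPKM and at 5.03, 4.48 and 3.92, and *Perp*, *Mansc1*, *Rec8* and *Dip2c* had means of 1.06 to 3.11.

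The rule took in all 6 WT values, as group means and through the highest of them, but not the order of the WT stages. WT stage 3 was compared with WT stage 2 in a fit over all genes. These include non-coding genes and genes on X, so the shares of all genes below cover a broader set than the rule allowed. Since the same WT values helped to choose the genes, and the rule also limits their spread, the counts and p-values below are not independent of the choice and are given as a description. Several of the most abundant of the 59 genes fell from WT stage 2 to WT stage 3. Of the 57 genes tested, 6 fell by a fold of at least 2 at an unadjusted limma p of at most 0.05 (10.5%, against 1.9% of all 20689 genes), namely *Il17rb*, *Nrgn*, *Adh1*, *Nsg2*, *Ptgir* and *1810011H11Rik*. Only *Cpne7* rose by these thresholds (1.75%, against 1.7% of all genes). By a Benjamini-Hochberg adjusted limma p of at most 0.05 over all genes, *Il17rb*, *Nrgn*, *Adh1* and *Lsr* fell (7.02%, against 0.914%) and none rose (0.759% of all genes), where 1 rose at an unadjusted p under 0.05 and 0 in a model built after Ballgown (ordinary regression per gene, with library size as covariate).

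*Il17rb* changed by -3.78 ± 0.39 (SE) on the log2(FPKM + 1) scale from WT stage 2 to WT stage 3 (limma adjusted p = 0.0186), *Nrgn* by -3.76 ± 0.44 (limma adjusted p = 0.0237) and *Adh1* by -2.44 ± 0.25 (limma adjusted p = 0.0176). *Lsr* changed less, by -0.75 ± 0.11 (limma adjusted p = 0.0444), from 0.94, 0.60 and 0.53 FPKM to 0 in all 3 WT stage 3 libraries. All 4 were lower in every WT stage 3 library than in every WT stage 2 library. *Nsg2* (-1.75 ± 0.30, limma adjusted p = 0.0555) and *Ptgir* (-1.62 ± 0.31, limma adjusted p = 0.0768) did not pass the adjusted threshold, and neither did *Cpne7* (1.02 ± 0.30, limma adjusted p = 0.216), whose difference was 0.84 on a scale of equal library sums (TPM). Blocking on replicate number brought the count of 4 genes to 0, as did the Ballgown-style model. Of the WT stage 2 libraries, leaving out replicate 1 or 3 also gave 0. Of the WT stage 3 libraries, leaving out replicate 3 gave 0, replicate 1 gave 2, and replicate 2, the library with *Xist*, gave 1. Taking out that library left the count by fold and unadjusted p at 6. With 3 libraries a group, the smallest two-sided p that exact permutation allows is 0.1, so no such test was run for single genes.

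The 47 genes for which WT stage 2 was the nearer group are, by construction, those with the lower mean in WT stage 3. The median difference over the 57 genes was -0.21 on the log2(FPKM + 1) scale, beside -0.01 for all genes and -0.05 for the protein-coding ones. In 16 genes, all WT stage 3 values lay below all WT stage 2 values (10.4% of all genes tested did so). In 3 genes, *Ajuba*, *Jag1* and *Cpne7*, they lay above (7.36% of all genes). *Sp6*, the leading gene in *Med23*-deficient cells, changed between the WT stages by -0.65 ± 0.27 (limma adjusted p = 0.388) and *Jag1* by 0.67 ± 0.30 (limma adjusted p = 0.417).

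**Figure D3:**
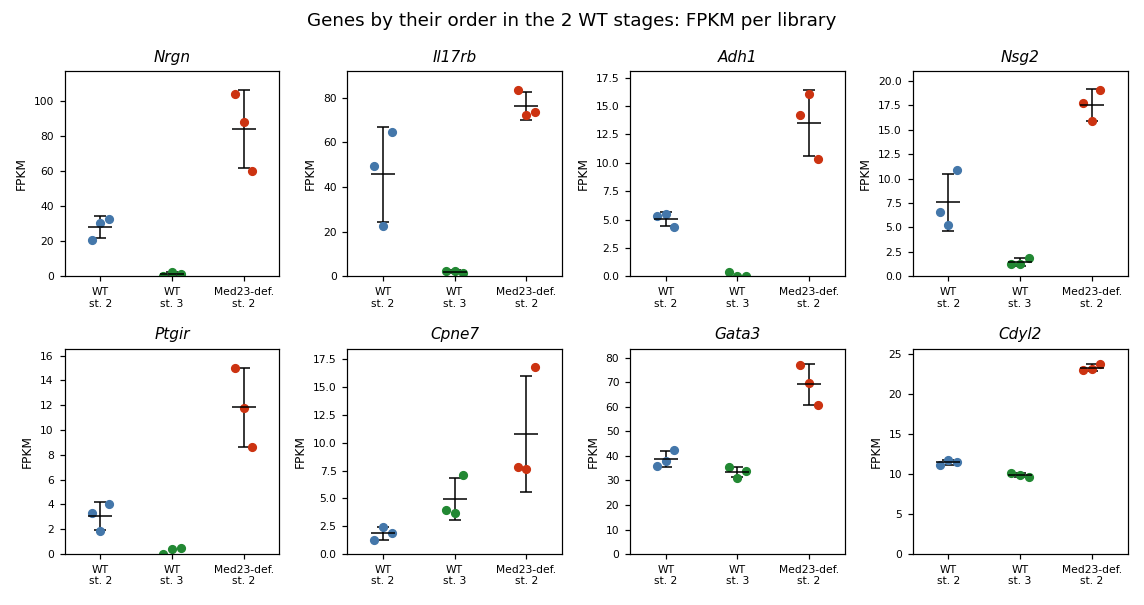
FPKM in each library (points) of *Nrgn*, *Il17rb*, *Adh1*, *Nsg2*, *Ptgir*, *Cpne7*, *Gata3* and *Cdyl2* by group, both WT stages first and *Med23*-deficient stage 2 last, with the mean (bar) and SD (whiskers) of 3 libraries where none of them is at 0; each panel has its own axis from 0. The first 5 genes step down from WT stage 2 to WT stage 3, *Cpne7* steps up, and *Gata3* and *Cdyl2* stay at 31.15 to 42.47 and 9.61 to 11.75 FPKM across both WT stages.

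The genes around the 59 were not used by the rule, and it was asked whether they were also higher in *Med23*-deficient than in WT stage 2 cells. Within 50 kb of 46 of the 59 genes lay 158 other genes that could be tested. Of these, 2 rose by fold and unadjusted limma p (1.27%, against 0.798% of all 20674 genes), and none fell (1.32% of all genes), where 9 were lower at an unadjusted limma p under 0.05 and 1 in the Ballgown-style model by fold and p. None passed an adjusted limma p of 0.05 in either direction (0.0677% of all genes rose and 0.145% fell by it), 12 being higher at an unadjusted p under 0.05 and none passing in the Ballgown-style model. The median difference of the neighbours was 0.0042 on the log2(FPKM + 1) scale, and 50% had the higher mean in *Med23*-deficient cells, as did 47.3% of all genes.

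Both neighbours that rose are non-coding models, named here after their values were seen. *Gm37552*, 3951 bases from *Gpr25*, was at 0.63, 0 and 0.08 FPKM in WT stage 2, at 0 throughout WT stage 3 and at 3.21, 3.90 and 6.73 in *Med23*-deficient cells (limma adjusted p = 0.0998). It thus had the same order as *Gpr25*. *A930024E05Rik*, 16729 bases from *Orai1*, was at 5.80, 6.68 and 7.63 FPKM in WT stage 2, 12.01, 14.91 and 11.20 in WT stage 3 and 15.26, 16.92 and 14.06 in *Med23*-deficient cells (limma adjusted p = 0.0633). *Chdh*, a choline dehydrogenase transcribed away from *Il17rb* with 127 bases between the genes, was at 60.45, 43.53 and 54.25 FPKM in WT stage 2, 2.83, 2.44 and 1.41 in WT stage 3 and 91.81, 75.20 and 77.17 in *Med23*-deficient cells. The levels of *Chdh* followed the order of *Il17rb* in the 3 groups, with a difference of 0.62 between the stage 2 groups that passed neither the fold threshold nor the adjusted p (limma adjusted p = 0.218).

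**Figure D4:**
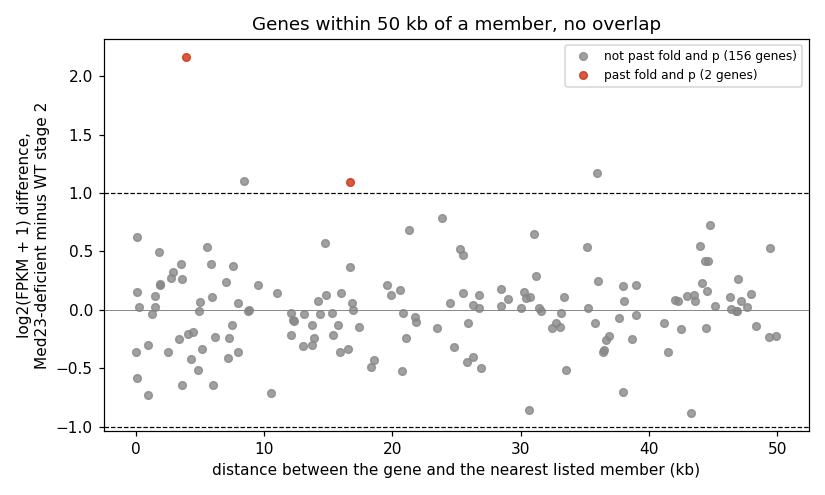
Difference of mean log2(FPKM + 1) between *Med23*-deficient and WT stage 2 cells (vertical axis) of 158 genes that lie within 50 kb of the 59 genes, against the distance to the gene in kb (horizontal axis), with dashed lines at a 2-fold change. The 2 red points passed fold and p, and the grey points scatter around 0 at all distances.

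Genes that overlap the 59 were counted apart, since reads may be shared where the counting did not use strand, and the strand setting is not given in the sources used here. Of 25 such genes tested, only *2010016I18Rik*, which lies across *Dennd2d* on the opposite strand, rose by fold and p (7.06, 6.50 and 13.14 FPKM in WT stage 2 against 47.05, 22.09 and 46.12, limma adjusted p = 0.154). The level of *Dennd2d* is therefore uncertain. The 59 genes lay on 18 autosomes. Chromosome 14 held 5 of them, 1.10% of its 453 eligible genes, and chromosomes 7 and 11 held 6 each. Along the chromosomes, 3 pairs of them lay within 1 Mb of each other: *Ajuba* and *Slc7a8* (145 kb), *Catsperd* and *Alkbh7* (333 kb), and *Slc7a8* and *Rec8* (836 kb). On chromosome 10, which carries *Med23*, were *Perp*, *Tbc1d30* and *Ikzf4*, at 6.02, 96.4 and 104 Mb from *Med23*. The median transcript length was 3466 bases (3305 over eligible genes), and the median G+C share 51.9% (49.9%).

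Promoters, taken as 250 bases before to 50 bases after the start of a gene in RefSeq on GRCm38.p6, were found for 43 of the 59 genes. For some, the RefSeq start lay far from the gene start that came with the FPKM values. The distance was 16594 bases for *Adh1*, 11434 for *Gata3*, 11011 for *Thsd4* and 1664 for *Etfbkmt*, and these promoters are counted below all the same. The AP-1 letters TGANTCA were present on either strand in 3 of them (6.98%, against 4.70% of 9583 promoters of protein-coding genes off X and Y and 7.81% of all 32851 promoters). They lay before the starts of *Il17rb*, *Lif* and *Lsr*. The sequences below run 5′ to 3′ on the strand of the gene, end before the first annotated exon, and have the AP-1 letters in capitals, at 104, 228 and 65 bases before the start.
Il17rb chr14:30008897-30009022: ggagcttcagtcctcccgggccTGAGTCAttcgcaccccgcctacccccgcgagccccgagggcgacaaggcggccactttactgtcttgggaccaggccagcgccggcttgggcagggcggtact
Lif chr11:4257318-4257556: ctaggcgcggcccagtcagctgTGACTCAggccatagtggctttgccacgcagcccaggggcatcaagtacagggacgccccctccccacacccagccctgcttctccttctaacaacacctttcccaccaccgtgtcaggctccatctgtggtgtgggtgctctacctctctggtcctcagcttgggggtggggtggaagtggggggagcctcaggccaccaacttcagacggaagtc
Lsr chr7:30973470-30973719: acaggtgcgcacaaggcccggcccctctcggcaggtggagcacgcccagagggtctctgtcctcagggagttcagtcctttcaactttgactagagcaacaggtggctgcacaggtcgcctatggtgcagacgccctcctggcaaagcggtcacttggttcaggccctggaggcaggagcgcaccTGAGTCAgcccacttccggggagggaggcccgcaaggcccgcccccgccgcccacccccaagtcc
*Il17rb* and *Lsr*, on the reverse strand, hold the letters TGAGTCA, and *Lif*, on the forward strand, holds TGACTCA. The *Il17rb* stretch is all that lies between that gene and *Chdh*, so its AP-1 letters lie before both genes. *Il17rb* and *Lsr* are also among the 4 genes that fell between the WT stages by adjusted p. The promoters matched to *Nrgn* and *Adh1*, the others of these, do not hold the letters, and a link was not tested.

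The GC box GGGCGG, the letters bound by Sp and Klf factors, was in 30 of the 43 promoters (69.8%, against 63.5% of the 9583), and the Klf letters CACCC in 33 (76.7%, against 63.1%). The motifs overlap in 5 of the promoters. *Ptpn13*, *Axin2* and *Csf1*, among the more abundant of the 59 genes, each have 2 copies of GGGCGG close to the start, at 53 and 28, 58 and 20, and 51 and 41 bases before it. Other promoters of the 59 genes hold more copies, with 8 in *Homer2* and 5 each in *Blvrb* and *Fndc5*. Whether *Sp6*, the leading gene and a member of this family, acts on any of them was not tested. *Ptpn13*, *Axin2* and *Csf1* are shown as examples, with the copies in capitals.
Ptpn13 chr5:103424942-103425191: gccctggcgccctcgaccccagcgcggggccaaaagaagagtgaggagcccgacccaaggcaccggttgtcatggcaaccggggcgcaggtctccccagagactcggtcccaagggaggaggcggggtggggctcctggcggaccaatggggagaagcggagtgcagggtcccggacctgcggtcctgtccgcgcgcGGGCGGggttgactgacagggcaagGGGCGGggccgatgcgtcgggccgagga
Axin2 chr11:108920099-108920348: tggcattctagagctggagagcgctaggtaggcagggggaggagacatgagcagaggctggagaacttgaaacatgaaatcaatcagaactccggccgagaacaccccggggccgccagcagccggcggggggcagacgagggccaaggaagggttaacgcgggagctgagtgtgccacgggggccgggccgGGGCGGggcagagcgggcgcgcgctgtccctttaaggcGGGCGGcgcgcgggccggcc
Csf1 chr3:107760470-107760719: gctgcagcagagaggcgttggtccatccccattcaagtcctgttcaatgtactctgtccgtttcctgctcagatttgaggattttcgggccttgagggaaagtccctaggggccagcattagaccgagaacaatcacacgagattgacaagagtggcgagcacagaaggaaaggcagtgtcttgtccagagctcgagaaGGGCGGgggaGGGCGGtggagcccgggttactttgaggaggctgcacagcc
The first 2 of these lie on the forward strand and *Csf1* on the reverse strand. The ETS letters CCGGAA were in 6 promoters (14.0%, against 28.6%), CCAAT in 12 (27.9%, against 38.6%), TATAAA in 3 (6.98%, against 6.77%), the Runx letters TGTGGT in 5 (11.6%, against 12.9%) and the GATA letters AGATAA in 4 (9.30%, against 6.52%). The median G+C share of the promoters was 62.0% (60.7% over the 9583), with a median of 19 CpG (21). A match of letters does not show that a factor binds there.

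**Figure D5:**
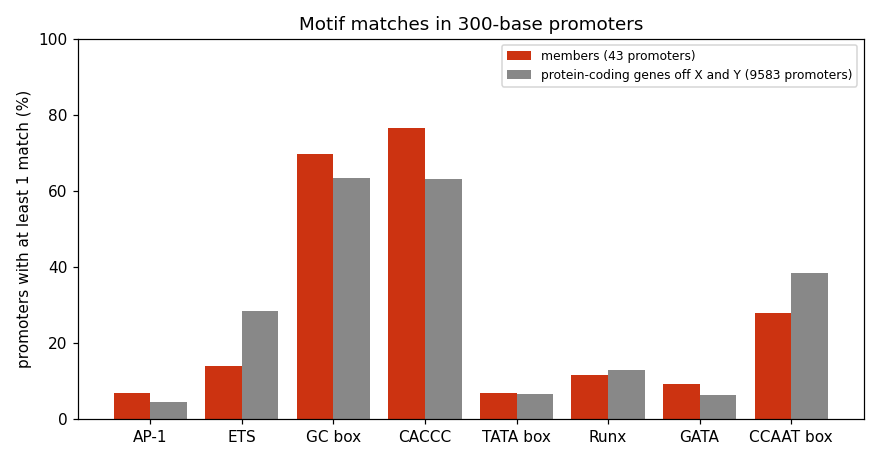
Share of promoters in percent (bars, axis from 0) with at least 1 match to each motif, for 43 of the 59 genes (red) and 9583 protein-coding genes off X and Y (grey). The GC box and CACCC bars are the tallest in both groups, and the ETS bar is 14.0% in red and 28.6% in grey.

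Lists of 15 families and pathways were compared between *Med23*-deficient and WT stage 2 cells, with the 59 genes taken out. Of these lists, 9 contain between them 13 of the 59 genes. Their 182 other genes tested included 2 that rose (1.1%) and 4 that fell (2.2%) by fold and unadjusted limma p, where 0.798% of all genes rose and 1.32% fell. The 6 lists without any of the 59 had 2 of 166 genes that rose (1.2%) and 18 that fell (10.8%), which makes 4 and 22 of the 348 genes in all (1.15% and 6.32%). The genes taken out had been chosen for being higher in this comparison, so nothing is read from the low number that rose among the rest. By adjusted limma p, 0 rose and 6 fell (0.0677% and 0.145% of all genes). At an unadjusted limma p under 0.05, 26 were higher and 71 lower. By adjusted p in the Ballgown-style model, 0 rose and 0 fell. Those that rose by fold and unadjusted p were *Tox2* and *Tigit*, from lists with some of the 59 genes, and *Il10ra* and *Itga2*, from lists without. *Tigit*, an inhibitory receptor, was at 0, 0 and 1.19 FPKM in WT stage 2, 5.26, 4.78 and 12.41 in WT stage 3 and 3.12, 7.28 and 11.29 in *Med23*-deficient cells (limma adjusted p = 0.182), and so was also present in WT stage 3. *Itga2*, an integrin alpha chain, was at 1.23, 1.5 and 0.90 FPKM, 1.08, 3.25 and 2.57, and 4.22, 4.01 and 4.92 (limma adjusted p = 0.132). It missed the rule for the 59 genes only by its smaller difference of 0.765.

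In 5 of the 9 lists with some of the 59 genes, no other gene passed fold and unadjusted limma p (0.798% of all genes rose and 1.32% fell): Sp and Klf factors (18 others tested, 1 higher and 3 lower at an unadjusted p under 0.05), glutamate receptors and transporters (8 tested, 0 and 0), NKT2 and type 2 genes (20 tested, 2 and 3), the Wnt pathway (21 tested, 1 and 1) and the Notch pathway (20 tested, 3 and 0). None passed fold and p in the Ballgown-style model either. At the shares over all genes, lists of this size would hold few such genes. Chemokine receptors, metabolic regulators named by the study and Mediator subunits, which hold none of the 59, also had no gene past fold and p. *Gata3*, *Il17rb* and *Lif* belong to the type 2 list. In the same list, *Il4* was at 18.44, 25.56 and 15.40 FPKM in WT stage 2 and 28.48, 26.52 and 27.31 in *Med23*-deficient cells (limma adjusted p = 0.477), and *Zbtb16*, which encodes the iNKT factor PLZF, at 112.43, 87.96 and 102.71 against 90.85, 75.25 and 68.08 (limma adjusted p = 0.483). *Hes1* and *Jag1* belong to the Notch list. There the receptor gene *Notch2* was at 16.97, 14.23 and 13.59 FPKM in WT stage 2 and 24.32, 26.60 and 24.39 in *Med23*-deficient cells (0.72 ± 0.11 on the log2(FPKM + 1) scale, limma adjusted p = 0.0968). *Rbpj*, the DNA-binding partner of Notch, stood at 5.74, 6.68 and 6.37 against 9.30, 10.05 and 10.17 (0.58 ± 0.13, limma adjusted p = 0.195), and *Lfng*, which glycosylates Notch receptors, at 59.48, 57.66 and 51.13 against 75.30, 87.67 and 76.78 (0.50 ± 0.10, limma adjusted p = 0.166). These 3 genes are those of the list at an unadjusted limma p under 0.05, named after their values were seen, and their differences were under 2-fold. Over the 20 other Notch genes tested, the median difference was 0.07, and 12 had the higher mean in *Med23*-deficient cells. *Notch1* was at 15.87 to 18.37 and 17.51 to 19.10 FPKM. *Axin2* belongs to the Wnt list.

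Some relatives of the 59 genes fell. Beside *Mmp9*, *Adam19* fell from 46.93, 50.89 and 46.34 FPKM to 9.43, 9.95 and 12.27 (log2 difference -2.09 ± 0.12, limma adjusted p = 0.00947), and *Mmp25* from 1.87, 0.91 and 1.33 to 0 (limma adjusted p = 0.0864). Beside *Ptpn13*, *Ptpn5*, another tyrosine phosphatase, fell from 4.12, 4.04 and 3.57 FPKM to 1.46, 1.25 and 1.30 (limma adjusted p = 0.166). In WT stage 3, *Adam19* was at 51.06 to 56.98 FPKM, *Mmp25* at 0 to 0.08 and *Ptpn5* at 4.08 to 7.25. Cell division genes, none of them among the 59, made up 12 of the 22 that fell. *Mki67* fell from 22.25, 29.70 and 34.82 FPKM to 4.05, 2.09 and 2.89 (limma adjusted p = 0.0301). It was also low in WT stage 3, at 2.25, 7.47 and 1.69. The summed level of the cell division genes was 236 to 271 FPKM in WT stage 2, 107 to 147 in WT stage 3 and 111 to 118 in *Med23*-deficient cells. *Il2ra* and *Ikzf4* are also markers of regulatory T cells. The summed level of 9 such markers, both genes included, was 95.1 to 126 FPKM in WT stage 2, 118 to 139 in WT stage 3 and 40.7 to 45.7 in *Med23*-deficient cells. *Itgae* and *Capg* made up most of this difference, while *Foxp3*, which defines these cells, was at 0 in 8 of the 9 libraries and at 0.41 in WT stage 2 replicate 3.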

How the data were processed

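RNA of 9 libraries, 3 per group, was analysed from FPKM values that the authors deposited per gene and library. According to the study's methods, total RNA was made into libraries with a stranded kit for small inputs, reads were trimmed with Trimmomatic 0.36, aligned to mm10 with HISAT2 and quantified with StringTie against GENCODE genes, from reads hitting no more than 2 loci. Read counts could not be recovered, because low values did not fall on multiples of 1 read. Sequencing depth is therefore unknown, and counting error cannot be expressed as an interval.

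From these values, log2(FPKM + 1) was computed (pseudocount 1). Differences were fitted with limma 3.58.1 in R 4.3.3 (eBayes with trend) on genes above 0 in at least 1 of the 6 libraries compared, after the script had been tested on simulated data. Genes were counted by the study's thresholds, a fold of at least 2 with unadjusted p of at most 0.05. A second count used p adjusted after Benjamini and Hochberg over the whole table, with a limit of 0.05. All p-values are two-sided. The study used Ballgown, and a Ballgown-style model was an alternative, with the others named in the closing section.

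The 59 genes, the gene lists and the tests were chosen with earlier results of these data known, and the grouping by role was made after the genes were known. Genes were named by rule: the 25 with the largest smaller difference, the 10 most abundant, those in a list, those called or of lowest p between the WT stages, and those next to the threshold, leaving out models with only a Gm or Rik name. The rest were named after their values were seen, except 1 that counts among the 59 but is not reported by itself here. Promoters and their sequences came from RefSeq (GRCm38.p6, the assembly of mm10). Plots were made with Python 3.11.15 and matplotlib 3.10.9.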

Additional observations from a re-analysis of the deposited data

How the results depend on the processing

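The number of genes meeting the rule depended on its settings. It was 59 as reported, 128 and 139 with pseudocounts of 0.1 and 0.01 (holding all 59), 37 on the TPM scale, 103 and 37 with thresholds of 0.6 and 1, and 59 to 84 when single libraries were left out. On the TPM scale, where the median gene with a mean of at least 1 FPKM shifted by -0.15 between the stage 2 groups (-0.05 as deposited), 37 of the 59 remained. With each library left out in turn, 39 of the 59 met the rule every time, and no difference of a member fell below 0.42 in any alternative. In WT stage 3 against WT stage 2, genes that fell by fold and p were 6, and 12 and 11 with pseudocounts of 0.1 and 0.01 (5 to 7 without single libraries). Genes that rose were 1, and 0 on the TPM scale and in the Ballgown-style model (0 to 1 without single libraries, 0 without WT stage 2 replicate 1 or WT stage 3 replicate 3). Those that fell by adjusted p were 4, and 0 in the Ballgown-style model and with the replicate block (0 to 3 without single libraries). Neighbours past fold and p were 2, and 4 and 8 with pseudocounts of 0.1 and 0.01, 1 on the TPM scale, 4 in the Ballgown-style model, 1 of 44 within 10 kb and 9 of 446 within 200 kb (2 to 4 without single libraries, 4 without WT stage 2 replicate 3 or *Med23*-deficient replicate 2 or 3). List genes that rose were 4, and 7 with either pseudocount (3 to 6 without single libraries, 6 without *Med23*-deficient replicate 2). List genes that fell were 22, and 44 and 43 with pseudocounts of 0.1 and 0.01 (22 to 29 without single libraries). Where a lone setting changed a count, the cause was not tested.

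Replicate numbers were not taken to pair the libraries. Deviations of same-numbered libraries from their group means correlated by 0.0823, 0.0334 and 0.154 between the WT stages and by 0.0338, 0.000671 and 0.14 between the stage 2 groups. With the replicate block, counts by fold and p were 6 and 1 between the WT stages, 2 for neighbours, and 3 and 21 for list genes. Unknown depth limits genes near 0: 29 of the 59 were at 0 in at least 1 WT library, and their differences rest on the pseudocount.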
